A study of Mus musculus with 9 samples.

Results

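The 8 genes described here are the vascular endothelial growth factor (VEGF) ligands Vegfa, Vegfb, Vegfc, Vegfd and Pgf, the VEGF receptor Kdr, and the secreted factors apelin (Apln) and endocan (Esm1). They were chosen by gene symbol, in part because Apln and Esm1 were among the largest increases of the study, and they are 8 of the 53465 genes in the count table. All 8 passed the filter on low counts, which left 14088 genes. The cells were adult mouse fibroblasts, and 9 RNA libraries were made, 3 from controls, 3 from cells given DPI for 24 h and 3 from cells given DPI for 72 h. DPI is taken here as diphenyleneiodonium, which inhibits enzymes that carry a flavin cofactor, since the study concerns targeting of the cofactor FMN. The labels name no genotype, strain, age, sex, dose or vehicle, and no time of collection for the controls, so time in culture cannot be told apart from DPI. Separate cultures are not named for the 3 libraries of a group either, so every p-value rests on spread among these 9 libraries alone, part or all of which could be technical.

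VEGF ligands are secreted dimers that bind receptor tyrosine kinases, and they are best known for making blood and lymph vessels grow. Fibroblasts and other stromal cells secrete them, while the receptors sit mainly on endothelial cells. Vegfa is the classical target of hypoxia-inducible factors in this family. Apelin and endocan are both known from the endothelial cells that lead a sprouting vessel, apelin as the peptide ligand of the receptor Aplnr and endocan as a secreted proteoglycan.

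The sequences just upstream of 5 members are shown, the pair picked for their increases (Apln and Esm1) and 3 with unlike courses over the groups (Vegfa, Vegfb and Kdr), so that the patterns below can be set beside them. Each is the 250 bases before the start of the gene, 5′ to 3′ on the gene's own strand, from RefSeq on GRCm38.p6, where all 8 genes had an entry. Vegfa and Pgf had 2 listed starts each, and only the one nearest the annotated gene start was used. Capitals mark the core letters of the hypoxia response element, ACGTG or GCGTG, searched on both strands (on the other strand CACGT or CACGC).

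Vegfa, chr17:46032378-46032627, minus strand: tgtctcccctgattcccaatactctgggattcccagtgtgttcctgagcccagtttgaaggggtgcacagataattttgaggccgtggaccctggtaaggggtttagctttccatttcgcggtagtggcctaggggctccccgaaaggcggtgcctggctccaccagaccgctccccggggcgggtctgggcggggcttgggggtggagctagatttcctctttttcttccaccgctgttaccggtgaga

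Vegfb, chr19:6987652-6987901, minus strand: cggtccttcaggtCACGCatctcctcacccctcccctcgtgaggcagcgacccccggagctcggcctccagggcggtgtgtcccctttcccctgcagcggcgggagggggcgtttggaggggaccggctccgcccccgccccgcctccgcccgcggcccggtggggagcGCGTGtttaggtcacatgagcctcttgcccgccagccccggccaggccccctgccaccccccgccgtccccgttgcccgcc

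Kdr, chr5:75978456-75978705, minus strand: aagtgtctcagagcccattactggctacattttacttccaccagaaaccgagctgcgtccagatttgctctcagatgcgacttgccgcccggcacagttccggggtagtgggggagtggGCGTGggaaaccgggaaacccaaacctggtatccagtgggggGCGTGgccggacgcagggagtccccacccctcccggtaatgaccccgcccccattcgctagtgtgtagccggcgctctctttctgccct

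Apln, chrX:48034854-48035103, minus strand: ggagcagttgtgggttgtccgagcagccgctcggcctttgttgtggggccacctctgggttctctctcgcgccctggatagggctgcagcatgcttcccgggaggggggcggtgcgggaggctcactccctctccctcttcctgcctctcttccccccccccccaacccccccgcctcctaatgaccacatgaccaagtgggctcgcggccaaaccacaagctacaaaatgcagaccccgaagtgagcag

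Esm1, chr13:113209409-113209658, plus strand: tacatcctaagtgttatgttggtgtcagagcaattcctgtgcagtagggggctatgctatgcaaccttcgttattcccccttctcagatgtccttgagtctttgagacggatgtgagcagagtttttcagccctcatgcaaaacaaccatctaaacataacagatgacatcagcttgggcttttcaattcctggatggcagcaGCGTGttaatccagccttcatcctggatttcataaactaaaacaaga

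The windows of Vegfb and Kdr each held 2 matches, that of Esm1 held 1, and those of Vegfa and Apln held 0. Sequence further upstream was not searched, so 0 matches here does not mean that a gene lacks the element. Among the members not printed, Pgf held 1 match and Vegfc and Vegfd held 0. Of all 32851 RefSeq promoter windows of this length, 38.6% held at least 1 match, so a match is common, and the letters say nothing of whether a factor binds. The letters TCACNCCAC of the sterol regulatory element (in 1.05% of windows) and TGATGNAA of the amino acid response element (in 3.45%) were in none of the 8 windows.

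Total counts per library ranged from 15292736 to 17923656, with control replicate 2 the deepest. That library stood apart from the other controls. Its counts differed from theirs with a chi-square per degree of freedom of 31.3 and 26.6, against 4.32 between controls 1 and 3. Several results below are therefore also given without it. Levels are given in CPM, that is counts brought to a common library size with the TMM factors of edgeR. Of 10 fibroblast markers, Col1a1, Col1a2, Fn1, Vim and S100a4 were abundant, but Thy1 had at most 2 counts and Lum at most 1 in any library. Dcn had 15 to 79 counts, Col3a1 21 to 109 and Pdgfra 108 to 280. Of 18 endothelial markers, 16 had a mean under 1 CPM. Without Cd34, which fibroblasts also make, the other 17 summed to 3.98 to 7.12 CPM in controls, 3.41 to 5.26 CPM at 24 h and 3.64 to 5.99 CPM at 72 h. Pecam1 had at most 7 counts, Cldn5 and Emcn at most 1, and Sox17 had 0 in every library. The summed markers of macrophages (10 genes, of which 9 had a mean under 1 CPM) were at 3.16 to 5.67 CPM, and Ptprc had at most 2 counts. Other marker sums moved with the groups. The pericyte and smooth muscle sum (10 genes) was 194 to 247 CPM in controls, 281 to 294 at 24 h and 317 to 341 at 72 h. Cspg4 alone had 101 to 138, 154 to 159 and 217 to 239 CPM of it. These genes did not rise as a set. Smtn had 113 to 119 CPM at 24 h, above every control, and was within its control range at 72 h. Notch3 was lower at 24 h, at 5.38 to 7.13 CPM, than in every control. Mcam had at most 7.89 CPM in any library. The other 6 genes had means under 1 CPM, with Rgs5 at 1 to 5 counts. The keratinocyte and epithelial sum (10 genes) was 3.14 to 4.28, 2.87 to 4.45 and 7.65 to 9.39 CPM, with Krt5 at 0 in every library. The adipocyte sum (7 genes) was 38.2 to 48.9, 35.4 to 36.1 and 50.1 to 60.7 CPM, with Adipoq at 0. Pparg alone had 37.6 to 48.4, 34.8 to 35.4 and 49.3 to 60.4 CPM of it, and the other 6 adipocyte genes had means under 1 CPM. The fibroblast sum was 7121 to 8599, 13433 to 14088 and 11595 to 13043 CPM. The part of these shifts in the results below was not tested.

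Of all 14088 genes, 24.7% passed at 24 h against control, 12.4% higher and 12.3% lower, and 40.5% had groups that did not overlap. At 72 h against control 8.56% passed, 4.73% higher and 3.83% lower, and 27.1% had groups that did not overlap. Between 72 h and 24 h 21.3% passed, 10.1% higher and 11.2% lower, and 46.2% had groups that did not overlap. A gene passed at an adjusted p under 0.05 in edgeR's quasi-likelihood test, adjusted by Benjamini-Hochberg over all genes. Beside these shares, 3 of the 6 members Vegfa, Vegfb, Vegfc, Vegfd, Pgf and Kdr passed at 24 h (1 higher, 2 lower). At 72 h 3 passed (2 higher, 1 lower), and between the exposures 4 passed (2 higher, 2 lower). Apln and Esm1 were picked for their increases, so their values are a description and have no test.

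Vegfa, the main vessel growth factor, fell at 24 h and was above control at 72 h. The gene lies on chromosome 17 from 46016993 to 46032369 (GRCm38, minus strand). It had 91.5, 95.3 and 93.7 CPM in controls 1 to 3, 50.3, 54.1 and 48.0 CPM at 24 h, and 126, 120 and 131 CPM at 72 h. No library of a group reached the range of another group, and the 24 h libraries were the lowest and the 72 h libraries the highest. The log2 change was -0.88 ± 0.06 (SE) at 24 h (edgeR adjusted p = 5.12e-06) and 0.43 ± 0.06 at 72 h (edgeR adjusted p = 0.00138), with 3 libraries in each group. These calls held without control replicate 2, at -0.87 and 0.44. The 24 h and 72 h comparisons share their control libraries. In the direct comparison, Vegfa was 2.48-fold higher at 72 h than at 24 h, a log2 difference of 1.31 ± 0.06 (SE, edgeR adjusted p = 4.14e-07). In such bulk samples, fewer cells that make a transcript and less of it per cell cannot be told apart.

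Vegfb, a ligand that binds Flt1 but not Kdr, had its low point where Vegfa had its high point. The gene lies on chromosome 19 from 6982473 to 6987651 (minus strand). Its levels were 34.2, 48.3 and 36.9 CPM in controls 1 to 3, 46.1, 49.1 and 48.7 CPM at 24 h, and 29.4, 28.2 and 27.2 CPM at 72 h. The 72 h libraries were below all others, while control replicate 2 lay within the range of the 24 h libraries and the other controls lay under it. Vegfb fell at 72 h against control by 0.49 ± 0.11 in log2 (SE, with edgeR adjusted p = 0.0220). This call was lost without DPI 72 h replicate 1, 2 or 3, at adjusted p = 0.0604, 0.0820 and 0.0904, and when only the 6 libraries compared were fitted (0.0742). The log2 change at 24 h was 0.27 ± 0.11 and did not pass (edgeR adjusted p = 0.108). Without control replicate 2 it was 0.43 and passed (edgeR adjusted p = 3.81e-04), and it also passed with no filter on low counts (0.0384). Vegfb was lower at 72 h than at 24 h by 0.76 ± 0.11 on the log2 scale (edgeR adjusted p = 7.98e-04), and this held with each library left out in turn.

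**Figure D1:**
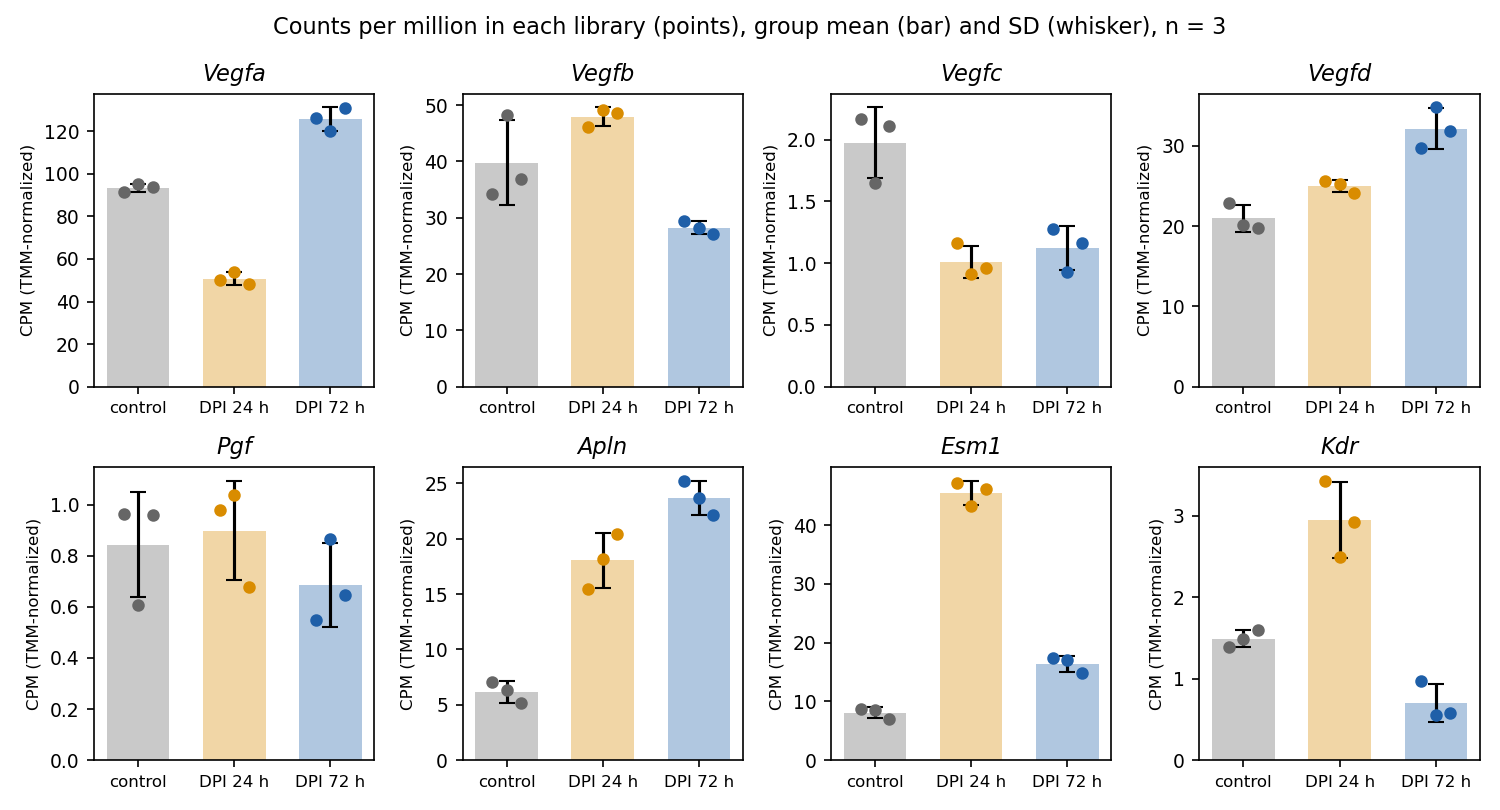
TMM-normalized CPM (vertical axes from 0) of the 8 genes in controls and after 24 h and 72 h of DPI; points are libraries, bars group means and whiskers SD over 3 libraries. Vegfa was lowest at 24 h and highest at 72 h, Vegfb and Kdr were lowest at 72 h, Esm1 was highest at 24 h and Apln at 72 h.

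Vegfd, also called Figf, and Vegfc are the ligands of Flt4, the receptor of lymphatic vessels. Vegfd, on chromosome X from 164373378 to 164402650 (plus strand), had 22.9, 20.2 and 19.8 CPM in controls, 25.6, 25.2 and 24.2 CPM at 24 h, and 29.8, 34.8 and 31.9 CPM at 72 h. The 3 groups did not overlap and were ordered control, 24 h, 72 h. Vegfd rose at 72 h against control by 0.62 ± 0.09 in log2 (SE, with edgeR adjusted p = 0.00102). At 24 h the log2 change was 0.25 ± 0.09 and did not pass (edgeR adjusted p = 0.0548), though it passed without control replicate 1 (0.32, adjusted p = 0.0314). The difference of 72 h from 24 h was 0.36 ± 0.08 on the log2 scale (edgeR adjusted p = 0.0115). That call was lost without DPI 24 h replicate 3 (adjusted p = 0.0519) and without DPI 72 h replicate 2 (adjusted p = 0.0549).

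Vegfc was scarce, with 15 to 36 counts per library. The gene, on chromosome 8 from 54077606 to 54187096 (plus strand), had 2.17, 1.65 and 2.11 CPM in controls, 1.16, 0.914 and 0.958 CPM at 24 h, and 1.28, 0.927 and 1.16 CPM at 72 h. All 3 control libraries lay above the 6 treated libraries, and the 2 treated groups overlapped. Vegfc fell at 24 h by 0.96 ± 0.31 in log2 (SE, with edgeR adjusted p = 0.0452). The call was lost in 8 of 9 fits that left out a library, all but the one without control replicate 2 (0.0451), at adjusted p from 0.0545 to 0.122. DESeq2 also did not call it (adjusted p = 0.0556). At 72 h the log2 change of Vegfc was -0.81 ± 0.31 and did not pass (edgeR adjusted p = 0.146).

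Pgf, placental growth factor, is a ligand of Flt1 and was the scarcest ligand, with 9 to 17 counts per library. It lies on chromosome 12 from 85166635 to 85177790 (minus strand). Its levels were 0.607 to 0.965 CPM in controls, 0.677 to 1.04 CPM at 24 h and 0.547 to 0.865 CPM at 72 h, and the 3 groups overlapped. The log2 change was 0.09 ± 0.40 at 24 h and -0.29 ± 0.41 at 72 h (SE, edgeR adjusted p = 0.899 and 0.739).

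Per length of exonic sequence, Vegfa and Vegfb made up most of the summed VEGF ligand level, and their order turned over between the exposures. In CPM per kilobase, Vegfa stood at 21.8 ± 0.444 in controls, 11.9 ± 0.713 at 24 h and 29.4 ± 1.22 at 72 h (SD, n = 3). Vegfb stood at 24.8 ± 4.67, 29.9 ± 1.03 and 17.6 ± 0.678 CPM per kilobase in the same order. In controls the levels of these genes lay within 1 SD of Vegfb of each other.

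The ratio of Vegfa to Vegfb within a library, per kilobase, was 0.896 ± 0.139 in controls, 0.397 ± 0.0243 at 24 h and 1.67 ± 0.113 at 72 h (SD, n = 3). The 3 groups did not overlap, and the ratio does not depend on how libraries were scaled. Vegfa made up 36.1% to 40.3% of the summed level of the 5 ligands in controls, 21.5% to 23.2% at 24 h and 46.2% to 49.7% at 72 h. Vegfd, the next most abundant ligand, made up 13.6% to 17.8%, 19.2% to 20.5% and 20.3% to 23.8%, and Vegfc and Pgf each stayed under Vegfd in every library, at 0.310% to 1.66%. The summed level itself varied less, from 51.9 to 61.6 CPM per kilobase over the 9 libraries, and control replicate 2 was its highest library. It was 53.4 to 61.6 in controls, 51.9 to 54.4 at 24 h and 60.8 to 61.4 at 72 h, so the 2 exposures did not overlap.

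**Figure D2:**
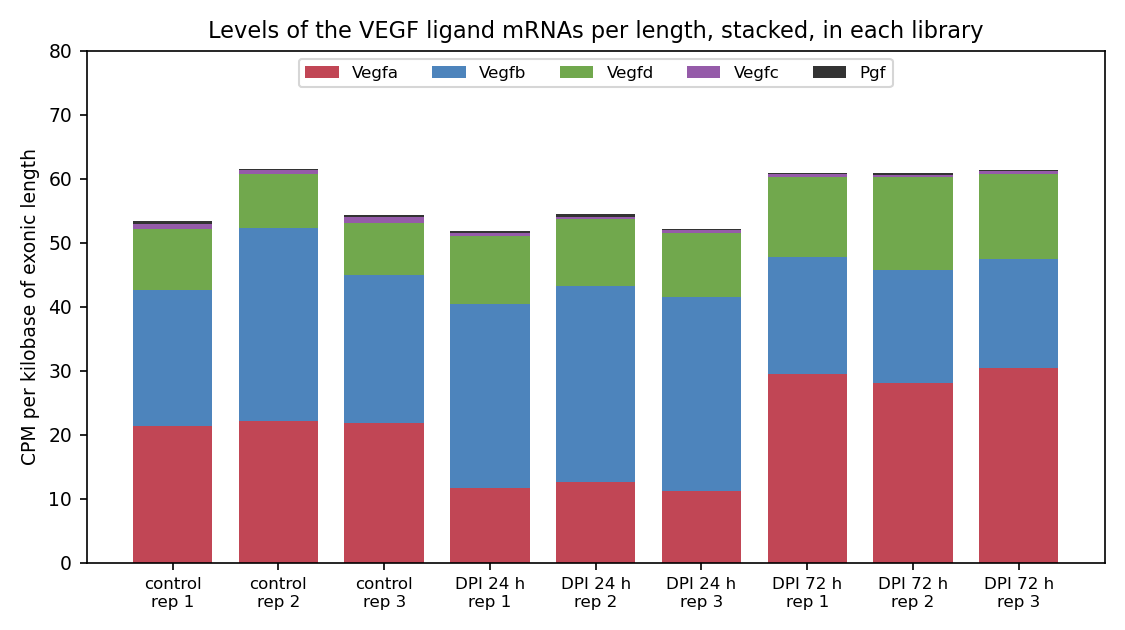
Levels of the 5 VEGF ligand mRNAs in CPM per kilobase of exonic length (vertical axis from 0), stacked, in each of the 9 libraries. The summed height is 53.4 to 61.6 in controls, 51.9 to 54.4 at 24 h and 60.8 to 61.4 at 72 h. The Vegfa part is smallest in the 24 h libraries and largest in the 72 h libraries.

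Kdr, the main signalling receptor for Vegfa, was scarce in these cells, with 9 to 56 counts per library. The gene lies on chromosome 5 from 75932827 to 75978458 (minus strand). It had 1.39, 1.49 and 1.60 CPM in controls, 3.43, 2.50 and 2.93 CPM at 24 h, and 0.972, 0.556 and 0.581 CPM at 72 h. The 3 groups did not overlap, with the 24 h libraries highest and the 72 h libraries lowest, the reverse of Vegfa. Kdr rose at 24 h by 0.98 ± 0.30 in log2 (SE, with edgeR adjusted p = 0.0338). That call was lost without any of the 3 controls or the 3 DPI 24 h libraries, at adjusted p from 0.0547 to 0.122, and with no filter on low counts (0.0927). At 72 h the log2 change from control was -1.07 ± 0.33 and did not pass (edgeR adjusted p = 0.0714). Kdr was 4.16-fold lower at 72 h than at 24 h (log2 difference -2.06 ± 0.32, edgeR adjusted p = 0.00104), and this held with each library left out in turn.

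Kdr is also a marker of endothelial cells, so the few endothelial markers that passed the filter on low counts are given beside it. Erg, an endothelial transcription factor, had 4 to 8 counts in controls, 12 to 22 at 24 h and 3 to 12 at 72 h. It passed that filter only through the 24 h libraries, so its log2 change at 24 h, 1.68 ± 0.58, is a description with no test. Egfl7, a secreted endothelial protein, fell at 24 h by 1.14 ± 0.34 on the log2 scale (edgeR adjusted p = 0.0317). Its levels were 2.53 to 5.57 CPM in controls and 1.28 to 2.39 CPM at 24 h, and its change without control replicate 2 is not given here. Cd34 rose at 24 h by 0.59 ± 0.06 (edgeR adjusted p = 4.45e-05) and was 350 CPM in controls. At 72 h against 24 h, Cd34 was lower by 0.36 ± 0.06 (edgeR adjusted p = 0.00122). Egfl7 differed there by 0.69 ± 0.34 and did not pass (edgeR adjusted p = 0.194). The difference of Erg, again a description, was -1.47 ± 0.57. The part of other cell types in the Kdr values was not tested.

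**Figure D3:**
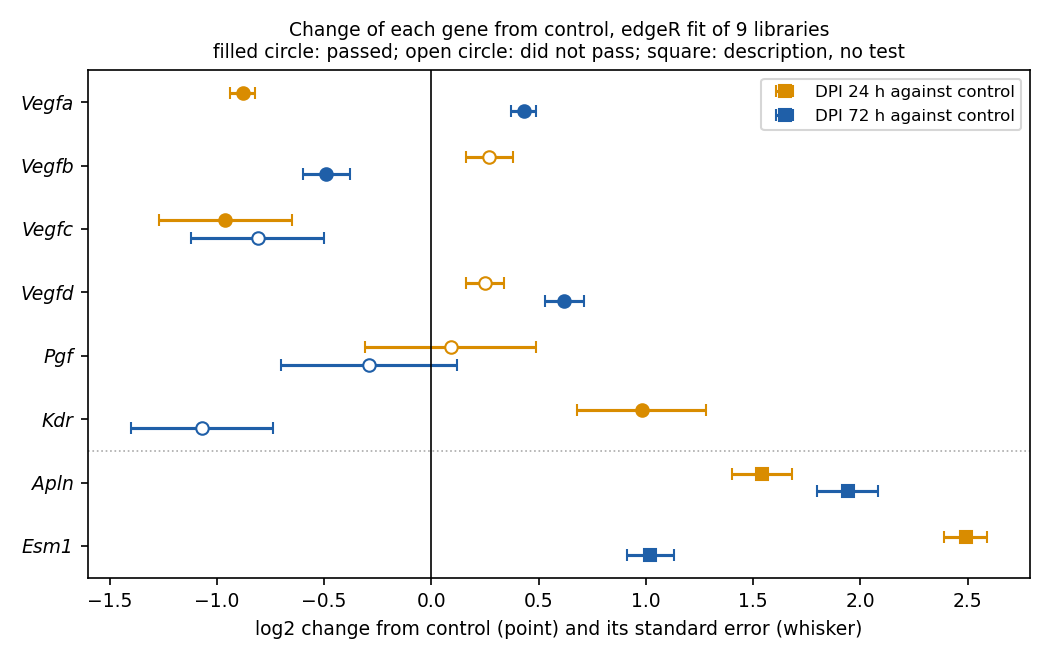
Log2 change from control (horizontal axis) of each gene at 24 h (orange) and 72 h (blue), with its standard error as a whisker; filled circles passed edgeR's test, open circles did not, and squares are the genes picked for their increases, with no test. Vegfa lies at -0.88 and 0.43, Kdr at 0.98 and -1.07, and Esm1 at 2.49 and 1.02.

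Apelin and endocan had levels above control in every treated library, with opposite orders of the exposures. Apln, on chromosome X from 48025146 to 48034853 (minus strand), had 7.06, 6.34 and 5.12 CPM in controls 1 to 3, 15.5, 18.2 and 20.4 CPM at 24 h, and 25.2, 23.7 and 22.1 CPM at 72 h. The 3 groups did not overlap, and the 72 h libraries were the highest. As a description, its log2 change from control was 1.54 ± 0.14 (SE) at 24 h and 1.94 ± 0.14 at 72 h, and 72 h stood 0.39 ± 0.13 above 24 h. Among the 10420 genes with a mean of at least 5 CPM, Apln had the 5th largest increase at 72 h and ranked 44th at 24 h. Among all 14088 genes tested, scarce ones included, it ranked 44th at 72 h and 150th at 24 h. The next increases above and below it at 72 h were 2.16 (Gm10076) and 1.76 (Pgam1-ps2) on the log2 scale.

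Esm1, on chromosome 13 from 113209659 to 113218098 (plus strand), had 8.68, 8.61 and 6.97 CPM in controls, 47.1, 43.2 and 46.1 CPM at 24 h, and 17.4, 17.0 and 14.8 CPM at 72 h. The groups did not overlap, with 24 h far above the rest. As a description, its log2 change was 2.49 ± 0.10 (SE) at 24 h, 5.61-fold, and 1.02 ± 0.11 at 72 h, 2.02-fold. The difference of 72 h from 24 h was -1.47 ± 0.10. Esm1 had the 4th largest increase at 24 h among the same 10420 genes, between 4930579C12Rik (2.50) and Gm28661 (2.49), and ranked 50th at 72 h. Among all 14088 genes it ranked 29th at 24 h and 270th at 72 h. The gene overlaps Gzmk, which lies on the opposite strand and had at most 1 count in any library. Per kilobase, Esm1 stood at 21.7 ± 0.970 CPM at 24 h (SD, n = 3), above Vegfa in the same libraries (11.9 ± 0.713), while in controls it was 3.86 ± 0.461 against 21.8 ± 0.444 for Vegfa.

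Aplnr, the receptor for apelin, had 0 to 8 counts per library and was not tested. Apela, the other known ligand of that receptor, had 0 counts in all 9 libraries.

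The genes whose log2 CPM followed each of these genes most closely over the 9 libraries were found by Pearson's r among the genes with a mean of at least 5 CPM, as a description. The libraries share their 3 groups, so r mostly reflects the group means. The highest values for Apln were in Ltbp1 (0.984), Stim2 (0.984), Slc9a3r1 (0.983), Spp1 (0.981) and Enpp1 (0.980). Spp1 had 590 CPM in controls, 1109 CPM at 24 h and 1164 CPM at 72 h. For Esm1 they were Msmo1 (0.997), Il1rl1 (0.997), Acat2 (0.996), Sqle (0.996) and Idi1 (0.996). Msmo1 had 149, 409 and 223 CPM in the same order. All 10 genes had smaller fold changes than the gene they followed.

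**Figure D4:**
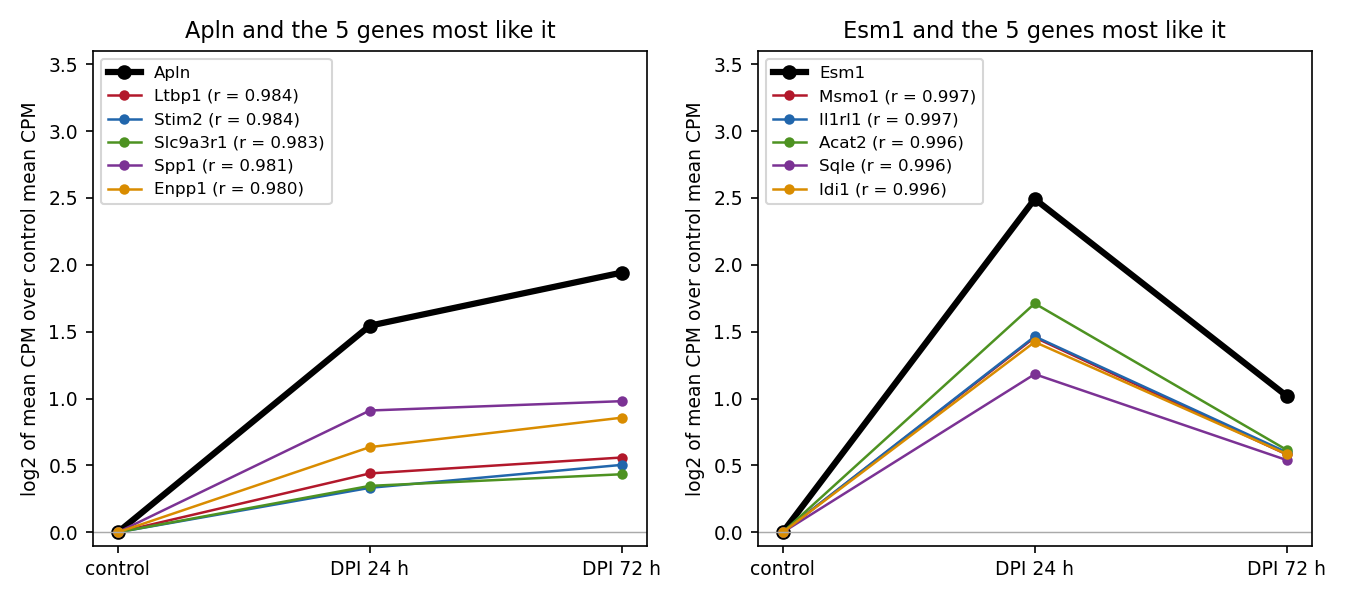
Log2 of each group's mean CPM over the control mean (vertical axis) for Apln, Esm1 and the 5 genes with the highest Pearson r to each over 9 libraries. The genes like Apln were highest at 72 h and those like Esm1 at 24 h, and none reached the change of 1.94 of Apln at 72 h or of 2.49 of Esm1 at 24 h.

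The 6 related lists below were chosen with earlier results of these data known, so their calls and counts are not from a blind choice. Of 4 other receptors and co-receptors of VEGF tested, 3 rose at 24 h and 2 at 72 h, and 0 fell. Over all genes 12.4% rose at 24 h and 4.73% at 72 h. The list's median log2 change was 0.73 and 0.46, against -0.01 over all genes at each time. Nrp1, a co-receptor that strengthens binding of Vegfa, had 26.3, 17.2 and 25.0 CPM in controls, 59.3, 66.2 and 62.8 CPM at 24 h, and 39.5, 40.4 and 39.0 CPM at 72 h. Every treated library lay above every control, with 24 h highest. Its log2 change was 1.46 ± 0.13 (SE) at 24 h and 0.80 ± 0.13 at 72 h (edgeR adjusted p = 1.94e-05 and 0.00277).

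Flt1, the receptor of Vegfa, Vegfb and Pgf, had 19.0, 16.4 and 15.4 CPM in controls, 30.4, 29.9 and 29.9 CPM at 24 h, and 28.3, 25.5 and 26.5 CPM at 72 h. It rose by 0.83 ± 0.09 at 24 h and by 0.66 ± 0.09 at 72 h in log2 (SE, with edgeR adjusted p = 7.32e-05 and 7.70e-04). Nrp2, the co-receptor for Vegfc and Vegfd, rose by 0.63 ± 0.09 at 24 h (edgeR adjusted p = 7.81e-04). Flt4 averaged 5.05 CPM in controls against 6.83 CPM at 24 h, a log2 change of 0.44 that did not pass (edgeR adjusted p = 0.111). Control replicate 2 was the lowest control for Nrp1, and without it the changes of Nrp1 were 1.29 and 0.63, still past the threshold.

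Of 26 genes of VEGF receptor signalling inside the cell that were tested, 8 rose and 2 fell at 24 h, where 12.4% of all genes rose and 12.3% fell. At 72 h 4 rose and 0 fell, where 4.73% of all genes rose and 3.83% fell. The median log2 change was 0.08 at 24 h and 0.11 at 72 h. At 24 h Pik3r1 and Pik3cb, subunits of phosphoinositide 3-kinase, rose by 0.92 ± 0.11 and 0.57 ± 0.07 (SE, edgeR adjusted p = 1.74e-04 and 1.48e-04), the tyrosine kinase gene Src by 0.30 and the adhesion adaptor Pxn by 0.33. At 72 h Prkca, a protein kinase C, rose by 0.60 ± 0.11 (edgeR adjusted p = 0.00662), and Pxn and Rac1 each by 0.26. Pxn and Rac1 lost their calls in 3 and 8 of the 9 fits that left out a library. Without control replicate 2 Pik3r1 rose by 0.78 at 24 h and Prkca by 0.45 at 72 h, both still past the threshold. The number that rose without that library was 13 at 24 h and 9 at 72 h. At 72 h it was 1 or 2 without control replicate 1 or 3, without DPI 24 h replicate 1 or 3, and without each of the DPI 72 h replicates. The number that fell at 24 h was 0 or 1 without control replicate 1 or 3 and without each DPI 24 h or DPI 72 h replicate.

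Among the other ligands that act on vessels, secreted or on the membrane, 9 of 22 tested rose and 0 fell at 24 h, with a median log2 change of 0.60. Over all genes 12.4% rose and 12.3% fell at 24 h. The chemokine gene Cxcl12 ranged over 7.23 to 8.99 CPM in controls, against 40.0 to 44.8 CPM at 24 h, and rose by 2.41 ± 0.10 (SE, edgeR adjusted p = 1.24e-07). That was the 8th largest increase at 24 h among the 10420 genes with a mean of at least 5 CPM, so its p-value does not come from a blind choice. Efnb2, the membrane ligand ephrin-B2, rose by 1.44, the growth factor gene Nrg1 by 0.97 and Ccn2, a matrix-bound factor, by 0.70. Without control replicate 2 Nrg1 rose by 0.85 and kept its call. At 72 h 7 rose and 2 fell, against 4.73% and 3.83% of all genes, with a median of 0.20. Ereg, epiregulin, rose by 0.93 ± 0.12 (edgeR adjusted p = 5.27e-04), Ccn2 by 0.59 and Efnb2 by 0.51, and the chemokine gene Ccl2 fell by 1.14 ± 0.17 (edgeR adjusted p = 0.00189). The number that rose at 72 h was 4 without DPI 72 h replicate 1 or 2.

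Inhibitors of vessel growth did not move in 1 direction. At 24 h 9 of 15 tested rose and 2 fell (median 0.36), and at 72 h 4 rose and 2 fell (median 0.06). The shares of all genes that rose and fell were 12.4% and 12.3% at 24 h, and 4.73% and 3.83% at 72 h. Serpinf1, which encodes the inhibitor PEDF, went from 10.9 to 2.44 CPM at 24 h, with a log2 change of -2.16 ± 0.20 (SE, and edgeR adjusted p = 3.24e-05). Timp3, which blocks binding of Vegfa to its receptor besides inhibiting metalloproteinases, fell by 0.61, and Timp2 and Sparc rose by 0.44 and 0.38. Col18a1, the source of endostatin, rose at 72 h by 0.89 ± 0.09 (edgeR adjusted p = 1.03e-04), and Cxcl10, an interferon-induced chemokine, fell by 1.46 ± 0.10 (edgeR adjusted p = 6.18e-06). Without DPI 24 h replicate 1 the number that rose at 24 h was 5.

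Enzymes that process or degrade the ligands mostly rose at 24 h, 8 of 11 tested against 1 that fell, with a median log2 change of 0.47. Over all genes 12.4% rose and 12.3% fell. Plat and Plau, the plasminogen activators, rose by 1.81 ± 0.11 and 0.97 ± 0.07 (SE, edgeR adjusted p = 1.21e-06 and 6.10e-06), Mmp2 by 0.82 and Adamts14 by 0.57. The 1 that fell, Pcsk6, named after its values were seen, had a mean of 0.676 CPM in controls and 0.121 CPM at 24 h. It passed the filter on low counts only through control and 72 h libraries. Its fall is therefore read as a description, though it is in the count. Its call was lost without control replicate 1 or DPI 24 h replicate 2 or 3. At 72 h 3 rose and 1 fell (median 0.21), against 4.73% and 3.83% of all genes. Plat rose by 0.83 and Adamts14 by 0.49, Mmp2 fell by 0.39, and Plau, at 0.27, lost its call in 7 of 9 fits that left out a library. Adamts3, which cleaves Vegfc, had at most 1 count in any library.

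Among regulators known to act on Vegfa, Egln3 and Egln1, the oxygen sensors that mark HIF proteins for breakdown, rose at 72 h by 1.37 ± 0.12 and 0.79 ± 0.06 (SE, edgeR adjusted p = 3.96e-05 and 1.26e-05). Egln3 had the 12th largest increase at 72 h among the 10420 genes with a mean of at least 5 CPM, so its p-value also does not come from a blind choice. Hif1a itself had 273 to 313 CPM in controls, 293 to 300 CPM at 24 h and 400 to 418 CPM at 72 h, and rose at 72 h by 0.44 ± 0.06 (edgeR adjusted p = 0.00135). In all 3 of 15 tested rose and 0 fell at 72 h (median 0.14), against 4.73% and 3.83% of all genes. At 24 h 3 rose and 1 fell (median -0.03), against 12.4% and 12.3% of all genes. Atf4, a stress response transcription factor that binds the Vegfa gene, had 505 to 619 CPM in controls, 354 to 377 CPM at 24 h and 590 to 603 CPM at 72 h. It fell at 24 h by 0.57 ± 0.08 (edgeR adjusted p = 4.34e-04), and by 0.47 without control replicate 2, where it kept its call.

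At 24 h Epas1, Ppargc1a and Stat3 had log2 changes of 0.79, 0.81 and 0.25 that passed. Epas1 and Ppargc1a each lost the call in 7 of 9 fits that left out a library, at adjusted p up to 0.178 and 0.187, and Stat3 lost it without DPI 24 h replicate 2 (adjusted p = 0.0607). The number that rose at 24 h was 1 without control replicate 2, DPI 24 h replicate 2 or 3, or any DPI 72 h replicate, and the number that fell was 2 without control replicate 1. Without control replicate 2 the number that rose at 72 h was 5 and the number that fell was 1.

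**Figure D5:**
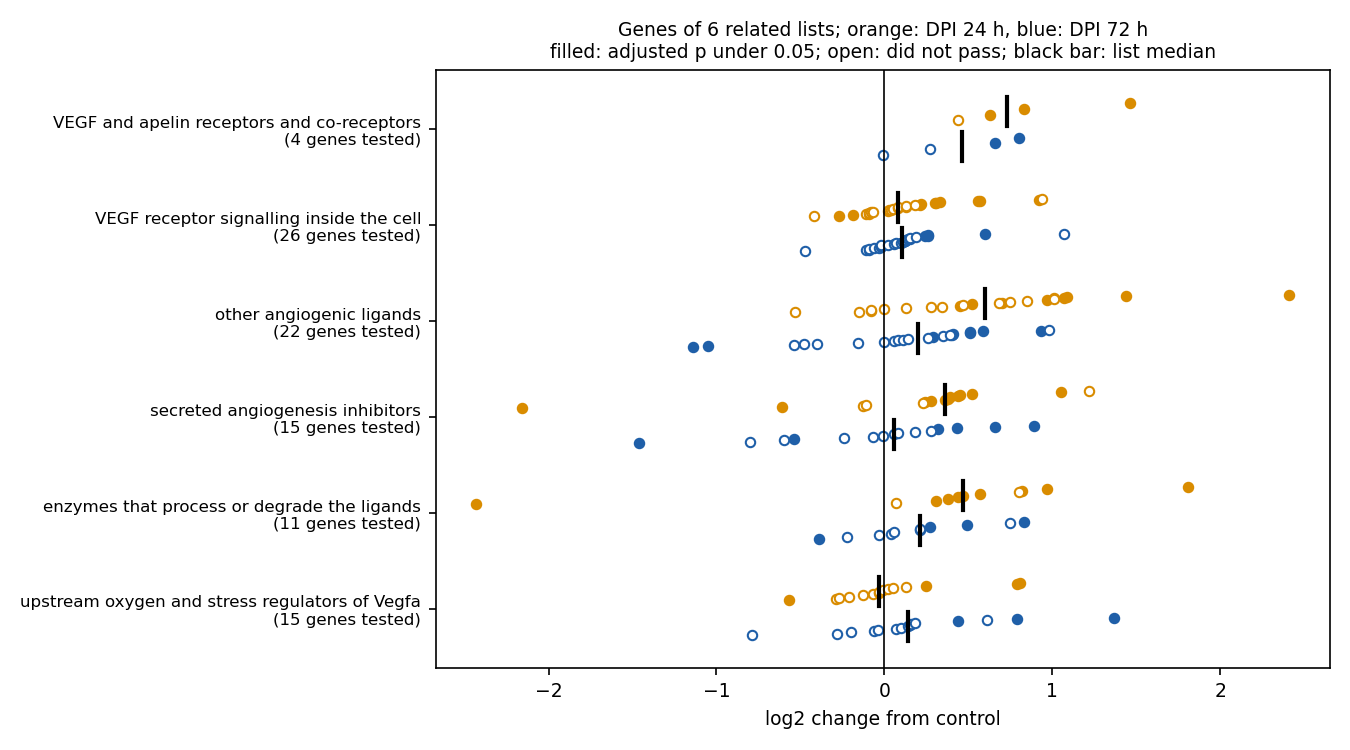
Log2 change from control (horizontal axis) of each tested gene in 6 related lists, at 24 h (orange) and 72 h (blue); filled points passed edgeR's test, open points did not, and black bars are list medians. The medians of receptors, other ligands and processing enzymes at 24 h lie at 0.73, 0.60 and 0.47, and those of signalling genes and regulators near 0.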

How the data were processed

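RNA was extracted with a column kit and sequenced on an Illumina instrument, per the labels' protocols. Tools named without version or role, per the submitters' processing notes, were Trim Galore with cutadapt, STAR with RSEM, and edgeR with limma, and the build was GRCm38. Annotation release, strand setting and rounding: not given in the sources used here. The authors deposited raw counts, as whole numbers per Ensembl gene, in a first table. A second, named as normalized, held 159498 values, all equal to the deposited counts, and was not used further.

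Symbols, coordinates and exonic lengths came from GENCODE M21 on GRCm38, where 105 IDs, with 0.0090% of counts, had no symbol. Genes were filtered with filterByExpr by group, and 14088 were fitted with TMM scaling and 1 mean per group over 9 libraries in edgeR 4.0.16 (R 4.3.3, glmQLFit and glmQLFTest, two-sided, Benjamini-Hochberg adjustment, threshold 0.05). Each standard error is the size of the log2 change over sqrt(F). The fit was first tested on simulated data, where it missed many small changes and the share of unchanged genes among its calls exceeded the threshold, so calls near 0.05 are less certain. No library was a copy of another within sampling noise. With 3 libraries a group, 0.1 is the smallest two-sided p an exact permutation test allows. Alternatives were DESeq2 1.42.0, limma 3.58.1 voom, other scalings, no filter, fewer groups, a replicate block and each library left out. The members and the 6 related lists were chosen with earlier results of these data known. From each list, the 4 genes with the smallest p in each comparison were named where they passed, except 1 that is not reported here. For likeness, 5 genes were named for each of Apln and Esm1, skipping predicted symbols.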

Additional observations from a re-analysis of the deposited data

Results flagged for a closer look

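The effects of the shorter and the longer exposure differed for these genes, by edgeR's direct test of the 72 h libraries against the 24 h libraries at an adjusted p under 0.05. Values are log2 differences, positive where 72 h was higher, over 3 libraries a group. Among VEGF family members the difference was 1.31 for Vegfa, -0.76 for Vegfb, 0.36 for Vegfd and -2.06 for Kdr. The change of Kdr from control did not pass at 72 h (edgeR adjusted p = 0.0714), and its call at 24 h was lost without any 1 of the control or 24 h libraries.

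The co-receptors Nrp1 (-0.66) and Nrp2 (-0.36) were lower at 72 h, and Nrp2 lost its call without DPI 24 h replicate 2 or 3 or any DPI 72 h replicate, at adjusted p from 0.0501 to 0.0779. Over all genes 11.2% were lower and 10.1% higher at 72 h than at 24 h. Of 26 signalling genes, 3 were lower and 2 higher, near those shares, or 7 and 4 without control replicate 2. Pik3r1 (-0.80) and Pik3cb (-0.42) were lower, and Map2k1 (0.42) and the calcineurin subunit Ppp3ca (0.38) were higher. Of 22 other ligands tested, 7 were lower and 5 higher. Those with the smallest p were all lower, with Ccl2 at -2.22, Pdgfb at -2.13, Cxcl12 at -2.00 and Efnb2 at -0.93. The 5 higher ones, named after their values were seen, were Ereg (0.48), Ntn4 (0.37), Pdgfa (0.34), Pdgfc (0.27) and Ccn1 (0.23), and 2 or 3 were higher without any 1 of the treated libraries. Of 15 inhibitors, 4 were higher and 6 lower, or 2 or 3 lower without any 1 of the treated libraries. Serpinf1 (1.56) and Timp3 (0.67) were higher, and Cxcl10 (-1.74) and Sema3a (-0.90) lower. Of 11 enzyme genes, 7 were lower and 1 higher. Mmp2 (-1.21), Plat (-0.98), Plau (-0.70) and the cathepsin Ctsd (-0.60) were lower. The higher one was Pcsk6 (2.40), chosen once its values had been seen, with 1 to 15 counts per library. It passed the filter on low counts only through control and 72 h libraries. This difference is therefore read as a description, though it is in the count. Its call was lost without DPI 24 h replicate 2 or 3 or DPI 72 h replicate 1 or 3. Of 15 regulators, 4 were higher, Egln3 (1.63), Egln1 (0.82), Atf4 (0.71) and Hif1a (0.45). Ppargc1a, named after its values were seen, was lower, at -1.60 ± 0.28 (SE, edgeR adjusted p = 0.00218), at 2.14 CPM against 6.48 CPM.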

How the results depend on the processing

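Vegfa kept its direction and its call in every comparison under all 16 alternatives. Apln and Esm1 kept their direction in each. Of 128 member values at 24 h, 20 lost a call, 3 gained one and 2 changed sign. At 72 h 4 of 128 lost a call, and between exposures 2 of 128. Pgf at 24 h changed sign, to -0.10 when control replicate 2 was left out and -0.03 when DPI 24 h replicate 2 was, within a range of -0.10 to 0.25. With the replicate block, the number of the 6 tested family members called at 24 h was 1, against 3, since Vegfc and Kdr lost their calls (adjusted p = 0.0687 and 0.0595). The block also ended the calls of Pxn, Rac1 and Plau at 72 h and Ppargc1a at 24 h. It ended no other call of a member or of a list gene named here for its small p. Endothelial markers, and calls named after their values were seen, are not covered by that statement. Replicate numbers are not said to pair the libraries, and libraries of the same number did not deviate together (correlations -0.09 to 0). Leaving out a library gave 1 to 3 members at 24 h. It gave 736 to 1965 genes of the whole table at 72 h, against 1206, and 1953 to 4729 between exposures, against 3001, with the highest values without control replicate 2. Fitting only the groups compared gave 774 and 4660. With 9 to 56 counts per library, Pgf, Vegfc and Kdr have the widest errors. The cause of these shifts was not tested.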
